A study of Mus musculus with 6 samples.

Results

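The genes described here are 10 transcriptional targets of the tumour suppressor p53 other than Cdkn1a (p21): Zmat3, Mdm2, Ccng1, Trp53inp1, Phlda3, Sesn1, Eda2r, Bax, Btg2 and Plk2. They were taken by gene symbol from the deposited table, which held 20893 genes, and all 10 were found in it. To be tested, a gene had to hold a value of 10 or more in 3 or more libraries, which all 10 did, among 14974 genes in all. RNA had been sequenced from whole hearts of C57BL6/J mice, labelled R1KO in 3 libraries with a germline Rbpms knockout and Wildtype in 3 control libraries. The series title calls the hearts embryonic, whereas its design text gives a neonatal stage and littermate controls. Neither an exact age, nor the deleted segment of Rbpms, nor the number of animals behind a library is given in the sources used here, so the p-values measure the spread between libraries, which may be technical.

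p53, encoded by Trp53, is a transcription factor that is kept scarce by the ubiquitin ligase Mdm2 and accumulates when DNA is damaged or cells are otherwise stressed. Its targets slow the cell cycle, damp growth signalling, repair DNA, or push a cell towards death, and some of them feed back on p53 itself. In the developing heart, cardiomyocytes still divide and withdraw from the cell cycle around birth.

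Read totals recovered from the table ran from 4773244 to 5805783 in knockout and from 4163230 to 5060232 in wildtype libraries, and each value is a read number multiplied by a library factor between 0.8524 and 1.1798 and rounded. Rbpms had values of 375, 340 and 507 in knockout libraries, against 1182, 1176 and 1317 in wildtype libraries. Its log2 fold change was -1.61 ± 0.14 (SE; limma, adjusted p = 0.0124), lower in 3 of 3 knockout libraries, and its adjusted p ran from 2.65e-08 to 0.133 with 1 library left out. The heart markers were all present: the summed value of 10 cardiomyocyte genes was 29799 to 33396 in knockout and 30838 to 33788 in wildtype hearts, with 0 of the 10 at 0 in any library. Knockout replicate 3 stood apart. Mean correlations within the group were 0.985 to 0.986 for wildtype libraries. The other knockout libraries had 0.974 and 0.977, means that include their correlation with knockout replicate 3. Its own mean correlation with them was 0.965. Its summed values of 10 proliferation genes (3037, against 1272 and 1545 in the other knockout libraries and 2079 to 2784 in wildtype libraries), 8 erythroid genes (2144, against 811 and 907, and 741 to 957) and 6 epicardial genes (859, against 1468 and 1500, and 1306 to 1500) differed from the rest of its group. It was also 1 of 2 libraries with abundant Xist (1763, with 1770 in wildtype replicate 1 and 14 or less in the other 4), so each group held 1 female library.

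Of the 10 p53 targets, Zmat3 rose in knockout hearts and none of the others passed the test in either direction (limma on log2(value + 1), with a threshold of 0.05 on the p adjusted over all 14974 genes by the Benjamini-Hochberg method). Leaving out knockout replicate 1, 2 or 3 gave 0, 2 or 3 called targets, and leaving out any wildtype replicate gave 0, with 3 or 4 at an unadjusted p under 0.05 where the limma count was 0. The calls over all 14974 genes moved with the same libraries, to 6, 510 and 727 (0.0401%, 3.41% and 4.86%) when knockout replicates 1, 2 and 3 were left out and to 3, 0 and 0 for wildtype replicates 1, 2 and 3, with 1477, 2176 and 1852 genes at an unadjusted p under 0.05 in the last 3 fits (limma). The fit without knockout replicate 1 had 1911 genes at that level. The share of all tested genes called in either direction was 0.942%, and the share called higher was 0.508%. The groups did not overlap for 4 of the 10, Eda2r, Zmat3, Phlda3 and Bax, each with all 3 knockout values above all 3 wildtype values, where 11% of all tested genes were separated in that direction. The same 4 had an unadjusted p under 0.05, a level that 16.4% of all tested genes reached, 8.54% higher and 7.86% lower. All 10 fold changes were above 0, against 49.8% of all tested genes, and their median log2 fold change was 0.22, against -0.001 over all tested genes. These 10 genes were listed with earlier results of the same data known, so the counts describe them and are no independent evidence of a direction. Some cell type markers leaned in 1 direction too, though none passed the test. Of 10 proliferation genes, 0 had a fold change above 0 and the median log2 fold change was -0.39, with summed values of 1272 to 3037 in knockout and 2079 to 2784 in wildtype libraries. Of 6 smooth muscle genes, 3 were separate and lower in knockout hearts (summed values 3659 to 4177 in knockout and 4056 to 4460 in wildtype libraries), and of 8 endothelial genes, 4 were separate and higher (7614 to 8105 in knockout and 7284 to 7758 in wildtype libraries). Over all tested genes 10.9% were separate and lower and 11% separate and higher. Fold changes were above 0 for 2 of the 6 smooth muscle genes and 6 of the 8 endothelial genes. None of these markers was at 0 in any library, and their part in the result was not tested. In RNA from whole hearts, fewer cells of a type and less RNA per cell cannot be told apart.

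**Figure D1:**
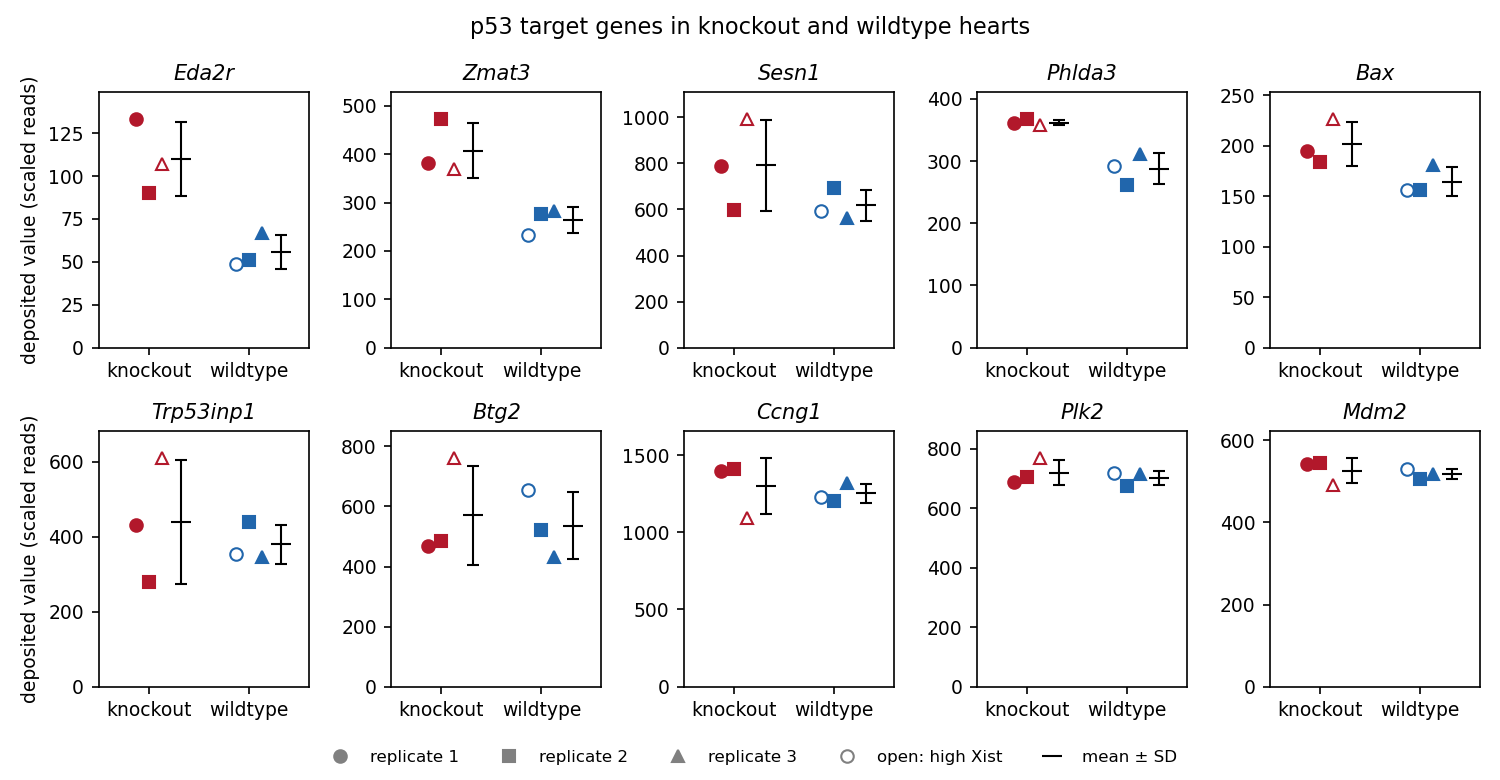
Deposited values (reads scaled by library and rounded) of the 10 p53 target genes in each knockout (red, left) and wildtype (blue, right) library. Marker shape gives the replicate number, open markers the library of each group with high Xist, and black bars the mean ± SD (n = 3 per group). The groups are separate for Eda2r, Zmat3, Phlda3 and Bax and overlap for the other 6.

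Zmat3 encodes a zinc finger protein that binds RNA and, in mouse cells, takes part in tumour suppression downstream of p53 by altering splicing. The gene (ENSMUSG00000027663) lies on the reverse strand of chromosome 3, from 32388941 to 32420163 of mm39. Its values were 382, 472 and 369 in knockout libraries, against 233, 277 and 282 in wildtype libraries. Every knockout library lay above every wildtype library, with means of 408 ± 56.1 and 264 ± 27.0 (SD, n = 3 each). The log2 fold change was 0.62 (95% interval 0.36 to 0.88; limma, adjusted p = 0.0494), which corresponds to a 1.54-fold higher level. It ranked 119th of all tested genes by p. The call rested close to the threshold: it was kept without knockout replicates 2 and 3 (adjusted p = 0.0367 and 0.00452), and was lost without knockout replicate 1 (0.134) and without wildtype replicates 1, 2 and 3 (0.231, 0.13 and 0.198), while the log2 fold change stayed between 0.51 and 0.69.

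The other members that act on the cell cycle and on RNA turnover showed overlapping groups. Btg2, an antiproliferative protein that recruits the CCR4-NOT deadenylase to mRNA, had 467, 484 and 760 in knockout libraries, against 656, 521 and 432 in wildtype libraries. The highest value in each group came from its female library, and the log2 fold change was 0.07 (95% interval -0.48 to 0.63; limma, adjusted p = 0.904). Btg2 is also an immediate early gene, and the 10 immediate early genes listed for comparison, which do not include it, had a median log2 difference from the wildtype mean of -0.32, -0.13 and 0.51 in knockout replicates 1, 2 and 3. The wildtype replicates gave 0.23, -0.11 and -0.09. Whether that movement bears on the Btg2 values was not tested. Plk2, a polo-like kinase that acts in centriole duplication, was the steadiest of these genes, with 688, 703 and 767 in knockout libraries, against 719, 675 and 713 in wildtype libraries. Its log2 fold change of 0.03 had a 95% interval of -0.12 to 0.18 (adjusted p = 0.843), which excludes a change of the size seen for Zmat3.

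Among the genes of cell death and stress, Eda2r had the largest fitted fold change of the 10 targets. It encodes a receptor of the tumour necrosis factor family that binds the ectodysplasin isoform EDA-A2, and it lies on the X chromosome (ENSMUSG00000034457, 96377446 to 96420822, reverse strand, mm39). Its values were 133, 90 and 107 in knockout libraries, against 49, 51 and 67 in wildtype libraries. The groups were separate, with means of 110.0 ± 21.7 and 55.7 ± 9.87 (SD, n = 3 each). The log2 fold change was 0.97 (95% interval 0.52 to 1.41), 1.95-fold, and its adjusted p of 0.0583 (limma) missed the threshold. Of the 6 fits with 1 library left out, those lacking knockout replicate 2 (0.0263) or 3 (0.0158) passed, and those lacking knockout replicate 1 (0.186) or wildtype replicates 1, 2 or 3 (0.292, 0.175 and 0.19) did not. Knockout replicate 3 exceeded wildtype replicate 1, the only female libraries by Xist, by 1.11 on the log2 scale. The male knockout libraries exceeded the male wildtype libraries by 0.89 on average. With 1 female library per group, the female difference has no measure of spread. At a mean of 85.3 recovered reads Eda2r was also the member with the fewest reads.

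Bax, which permeabilises the outer mitochondrial membrane in apoptosis, had 195, 184 and 226 in knockout libraries, against 156, 156 and 181 in wildtype libraries. The groups were separated by a gap of only 3, between knockout replicate 2 and wildtype replicate 3. Its log2 fold change was 0.29 (95% interval 0.03 to 0.55; limma, adjusted p = 0.25), and it was 0.21 without knockout replicate 3. Trp53inp1, a nuclear stress protein linked to p53 phosphorylation and to autophagy, was the most scattered member, with 430, 280 and 609 in knockout libraries, against 353, 440 and 347 in wildtype libraries. Knockout libraries held both the highest and the lowest value of the 6. The log2 fold change of 0.15 (95% interval -0.53 to 0.82; adjusted p = 0.835) became -0.12 without knockout replicate 3.

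**Figure D2:**
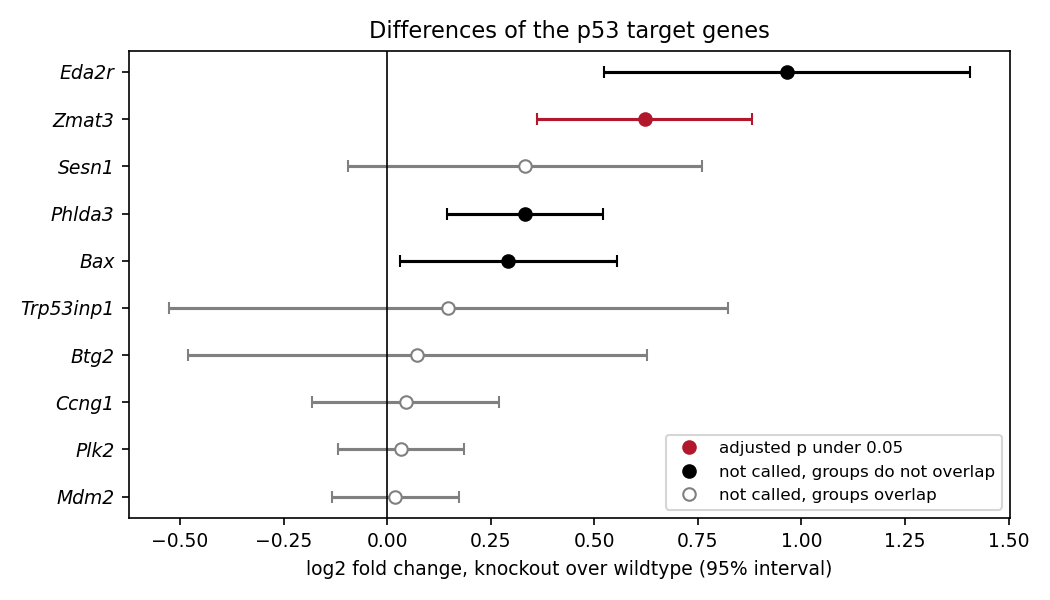
Log2 fold change of each p53 target gene, knockout over wildtype, with its 95% interval from limma (n = 3 libraries per group). Zmat3 (red) passed the test at 0.62, the black points (Eda2r, Phlda3 and Bax) have separate groups without passing, and the intervals of the grey open points include 0.

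Both brakes on growth signalling had a log2 fold change of 0.33, with very different scatter. Phlda3, a small pleckstrin homology domain protein that competes with Akt for membrane lipids, had 361, 367 and 358 in knockout libraries, against 292, 261 and 311 in wildtype libraries. The knockout values were nearly equal and all above the wildtype values, with means of 362 ± 4.58 and 288 ± 25.2 (SD, n = 3 each). Its 95% interval was 0.14 to 0.52 and its adjusted p was 0.0991 (limma). It passed without knockout replicate 3 (0.0467) and missed the threshold in the other 5 fits with 1 library left out (0.115 to 0.353). Sesn1, a sestrin that restrains mTORC1 when amino acids are short, had 787, 596 and 991 in knockout libraries, against 594, 695 and 563 in wildtype libraries. Knockout replicate 2 lay within the wildtype range and the other 2 knockout libraries lay above it, giving an interval of -0.09 to 0.76 (adjusted p = 0.41). Between the female libraries Sesn1 differed by 0.74 on the log2 scale, and between the male libraries by 0.13 on average.

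Neither Mdm2 nor Ccng1, the targets grouped here as feedback on p53, was called. Mdm2, the ligase that marks p53 for degradation, had 542, 545 and 492 in knockout libraries, against 531, 507 and 518 in wildtype libraries. The groups overlapped, with a log2 fold change of 0.02 (95% interval -0.13 to 0.17; limma, adjusted p = 0.911). Ccng1, cyclin G1, which brings protein phosphatase 2A to Mdm2, had 1395, 1409 and 1092 in knockout libraries, against 1231, 1204 and 1319 in wildtype libraries. Knockout replicate 3 was the lowest of all 6 and the other 2 knockout libraries were the highest, so that the mean difference was 0.04 (95% interval -0.18 to 0.27; adjusted p = 0.858). Both intervals lie below the fold changes fitted for Zmat3 and Eda2r, but the differences between genes were not tested.

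Read side by side, the libraries showed that the members did not move as a block. Relative to the wildtype mean, the median log2 difference over the 10 genes was 0.22, 0.12 and 0.47 in knockout replicates 1, 2 and 3. The wildtype replicates had medians of -0.04, -0.04 and 0.05. Of the 10, 8, 7 and 8 lay above the wildtype mean in the same knockout libraries, and 4, 3 and 6 in the wildtype libraries. The wildtype differences of each gene cancel out by construction, so their medians and counts are no independent comparison for the knockout libraries. Sesn1, Trp53inp1, Btg2, Bax and Plk2 were highest in knockout replicate 3, and Zmat3, Phlda3, Ccng1 and Mdm2 were lowest there among the knockout libraries. The part that the higher proliferation and erythroid values of that library play in these differences was not tested. Without it, 3 members rose, Zmat3, Eda2r and Phlda3, while 4.86% of all tested genes were called in either direction, and the median log2 fold change of the 10 was 0.16. Between the female libraries, Zmat3, Phlda3 and Bax differed by 0.66, 0.29 and 0.53 on the log2 scale, knockout minus wildtype. Between the male libraries the same genes differed by 0.60, 0.35 and 0.17 on average. In male libraries alone, an analysis chosen after seeing the data, Zmat3 rose (limma, adjusted p = 0.0164) and the median was 0.14. That fit held knockout replicates 1 and 2 and wildtype replicates 2 and 3, and called 1.71% of all tested genes.

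**Figure D3:**
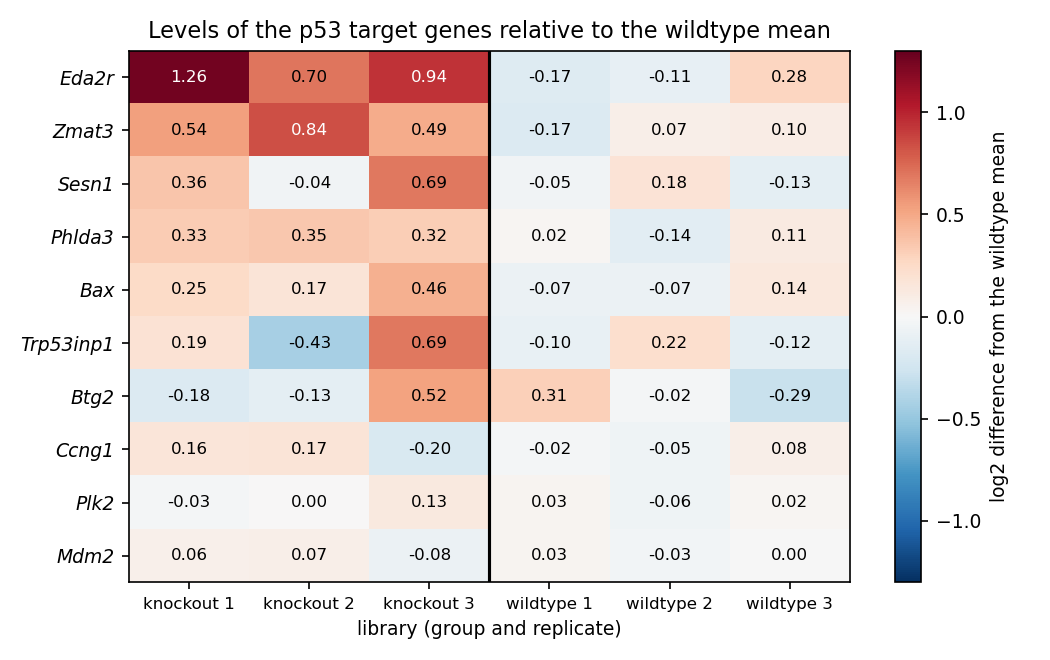
Log2 difference of each p53 target gene from its wildtype mean in each library, with knockout libraries on the left and wildtype libraries on the right. Red is higher and blue lower. Eda2r, Zmat3, Phlda3 and Bax are red in all 3 knockout libraries, and Sesn1, Trp53inp1 and Btg2 reach 0.69, 0.69 and 0.52 in knockout replicate 3.

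The members also differed in abundance. Per kilobase of exon, Ccng1 had the highest mean over the 6 libraries, 365 recovered reads, followed by Phlda3 (211), Btg2 (206), Sesn1 (182), Plk2 (160), Bax (118) and Mdm2 (104). Trp53inp1 had 65.3, Zmat3 29.9 and Eda2r 14.5 reads per kilobase. The largest fitted fold changes thus fell on the genes with the lowest levels per length. The highest mean of any tested gene was 0.925 reads per base of exon, and the members lay between 0.0145 and 0.365 reads per base. None of the 10 gene spans overlapped another gene of the table on either strand.

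Promoter sequences were available for 8 of the 10 genes (RefSeq, GRCm38.p6), with 2 start sites for Sesn1; Zmat3 and Trp53inp1 had no entry. p53 binds DNA as a tetramer at a pair of 10-base units, the p53 decamer consensus, which reads the same on both strands. A full site, defined as 2 decamers separated by 0 to 13 bases with at least 19 of 20 letters matched, was found in the 250 bases before the start of Ccng1 and Bax, and in 0.898% of 32851 mouse promoters of that length. A single perfect decamer was present in 4 of the 9 member promoters (Bax, Ccng1, Mdm2 and the downstream start of Sesn1), against 7.13% of all promoters. In Ccng1 and Bax that decamer is part of the full site. The windows before Eda2r, Phlda3, Btg2, Plk2 and the upstream start of Sesn1 held neither, and a match or its absence is a description of letters in this window and no evidence of binding. The 3 available promoters of genes with separate groups are printed with that of Ccng1, 5′ to 3′ on the gene's strand from 250 bases before the start to the last base before it. Capitals mark the decamers of a full site, which run from 212 to 192 bases before the start in Bax, with 1 base between them, and from 195 to 176 in Ccng1. The windows are chrX:97377210-97377459 (reverse strand) for Eda2r, chr1:135765835-135766084 (forward) for Phlda3, chr7:45466899-45467148 (reverse) for Bax and chr11:40755287-40755536 (reverse) for Ccng1, all in GRCm38.p6 and not in the mm39 of the table.
Eda2r: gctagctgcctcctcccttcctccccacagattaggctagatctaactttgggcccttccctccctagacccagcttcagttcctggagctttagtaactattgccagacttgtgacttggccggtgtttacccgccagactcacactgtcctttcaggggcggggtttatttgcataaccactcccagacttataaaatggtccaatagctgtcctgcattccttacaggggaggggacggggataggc
Phlda3: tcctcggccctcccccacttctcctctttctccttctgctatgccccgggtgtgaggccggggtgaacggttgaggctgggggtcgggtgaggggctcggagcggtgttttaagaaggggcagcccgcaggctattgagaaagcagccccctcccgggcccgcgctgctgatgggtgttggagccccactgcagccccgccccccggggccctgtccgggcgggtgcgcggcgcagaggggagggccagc
Bax: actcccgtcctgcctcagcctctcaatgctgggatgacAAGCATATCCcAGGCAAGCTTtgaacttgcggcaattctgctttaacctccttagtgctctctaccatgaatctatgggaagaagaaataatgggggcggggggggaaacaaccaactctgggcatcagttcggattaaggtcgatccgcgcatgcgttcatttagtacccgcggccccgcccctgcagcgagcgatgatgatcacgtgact
Ccng1: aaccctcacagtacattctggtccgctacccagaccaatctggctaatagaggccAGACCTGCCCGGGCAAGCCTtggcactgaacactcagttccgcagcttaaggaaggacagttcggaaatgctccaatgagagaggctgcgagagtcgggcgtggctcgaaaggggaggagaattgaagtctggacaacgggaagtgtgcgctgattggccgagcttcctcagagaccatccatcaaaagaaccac

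Set beside the RNA values, the genes with a full site, Bax and Ccng1, had log2 fold changes of 0.29 and 0.04. Those with a single perfect decamer, Sesn1 (at its downstream start) and Mdm2, had 0.33 and 0.02. Those with neither motif in the window, Eda2r, Phlda3, Btg2 and Plk2, had 0.97, 0.33, 0.07 and 0.03, so the ranges of the classes overlapped.

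Around these 10 genes, p53 itself was not called, and of its other listed targets only Cdkn1a was. Trp53 had 371, 363 and 368 in knockout libraries, against 426, 395 and 457 in wildtype libraries. The groups did not overlap, but the log2 fold change of -0.21 did not pass (limma, adjusted p = 0.206). Mdm4, the Mdm2 partner that blocks p53 activity, had 630, 617 and 713 in knockout libraries, against 628, 667 and 598 in wildtype libraries (log2 fold change 0.05, adjusted p = 0.801). Of 15 tested genes of p53 and its regulators, 0 passed in limma and 0 by voom applied to recovered reads. Before adjustment, 1 had a p under 0.05 in the higher and 2 in the lower direction, where all tested genes gave 8.54% and 7.86%. The median log2 fold change of the 15 was -0.03. Hipk2, a kinase that phosphorylates p53, had the smallest p of them, with 129, 120 and 187 in knockout libraries, against 49, 121 and 51 in wildtype libraries (log2 fold change 1.07, adjusted p = 0.206). Wildtype replicate 2 lay within the knockout range.

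Of 41 tested targets of p53 on 4 further lists, 1 rose and 0 fell, against the 0.508% and 0.434% of all tested genes called higher and lower. The gene that rose was Cdkn1a, the inhibitor of cyclin-dependent kinases, with 677, 571 and 807 in knockout libraries, against 270, 322 and 293 in wildtype libraries. Its log2 fold change was 1.20 (limma, adjusted p = 0.0124), beside 0.62 for Zmat3 in the same libraries, and its call was lost without knockout replicate 1 (0.0671) and without wildtype replicates 1, 2 and 3 (0.103, 0.0967 and 0.143). Together with the regulators of p53, these lists held 0, 4 or 6 called genes when knockout replicate 1, 2 or 3 was left out, where 0.0401%, 3.41% and 4.86% of all tested genes were called. Of the 4, 1 was lower, and of the 6, 2 were lower. They held 0 when any wildtype replicate was left out. The 4 lists had medians of 0.08 (12 genes of cell death), -0.06 (7 of the cell cycle), -0.04 (7 of DNA repair) and 0.11 (15 of metabolism and other roles). Among them, 7 genes were separate and higher in knockout hearts and 0 were separate and lower, where all tested genes gave 11% and 10.9%.

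On each of the 3 lists without a call, the gene with the smallest p also had separate groups without passing the test. The choice by smallest p favours separate groups, which 22% of all tested genes had in either direction. Aen, an exonuclease that acts in apoptosis, had 246, 279 and 232 in knockout libraries, against 145, 190 and 160 in wildtype libraries (log2 fold change 0.61; limma, adjusted p = 0.0571). Gdf15, a secreted stress cytokine, had 22, 33 and 37 in knockout libraries, against 6, 6 and 14 in wildtype libraries (log2 fold change 1.78, adjusted p = 0.0648), so each wildtype value rests on few reads. Xpc, which recognises damaged DNA, had 395, 390 and 443 in knockout libraries, against 338, 380 and 332 in wildtype libraries (log2 fold change 0.23, adjusted p = 0.226). With 1 library left out, Aen passed without knockout replicate 3 (0.00736) and missed the threshold in the other 5 fits (0.0629 to 0.275), and leaving out that library raised the calls over all genes to 727.

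**Figure D4:**
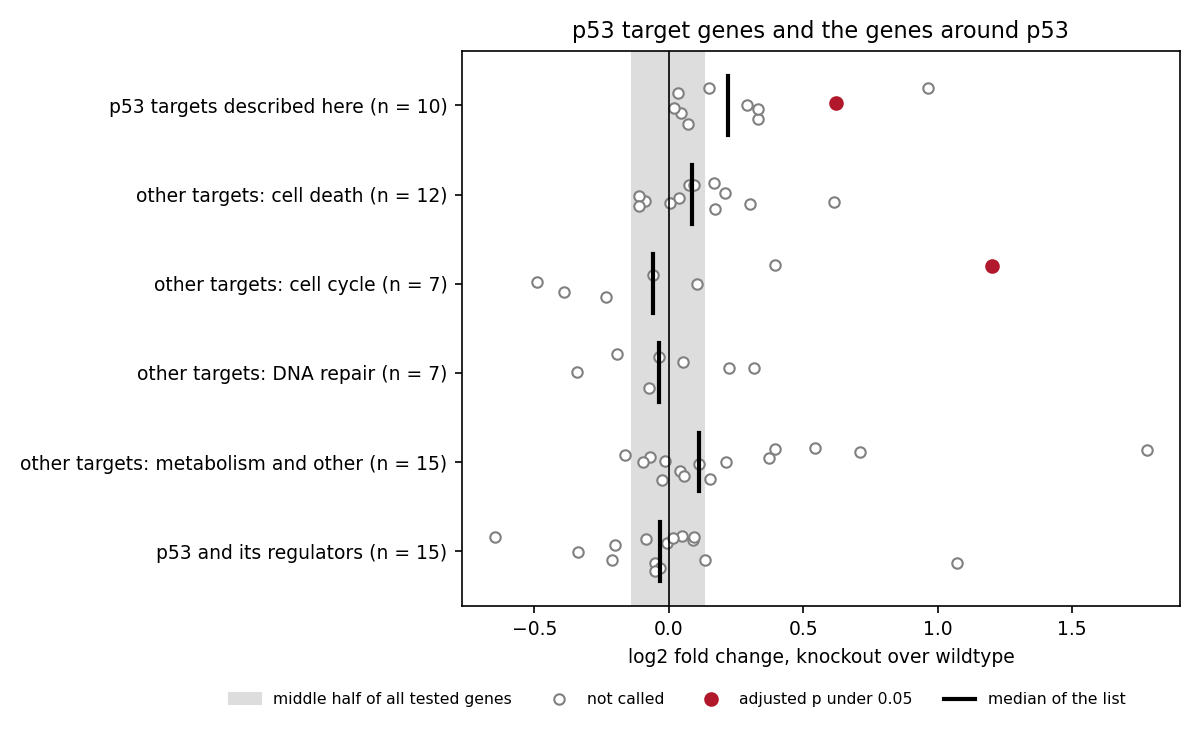
Log2 fold change, knockout over wildtype, of the 10 p53 targets described here (top) and of the other listed p53 targets and regulators, 1 point per tested gene with random vertical spread. Red points passed the test (Zmat3 and Cdkn1a), black lines are list medians, and the grey band, from -0.14 to 0.13, holds the middle part of all tested genes between the 25th and 75th percentiles.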

How the data were processed

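Per the labels' protocols, mouse heart RNA was made into stranded mRNA libraries and read from a single end. The submitters' processing notes name Trimmomatic 0.39, STAR 2.7.11a, Picard 3.0.0, featureCounts 2.0.4, DESeq2 1.36.0 and the build mm39, with no role or order. The unit of the deposited table was taken to be a score: reads of a gene multiplied by a library factor and rounded. The factors were first read from the spacing of values under 400. Those above 1 were then refined on all values of the library, to let as many as possible come from whole reads. In these 3 libraries all values gave whole reads within rounding. The refinement sought that match, so it is no independent check of the factors. In the other 3, 7.01% to 30.12% of the values could come from more than 1 read number.

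Genes that held 10 or more in 3 or more libraries were tested with limma 3.58.1 (trend and robust moderation, statmod 1.5.0, R 4.3.3) on log2(value + 1), on 6 libraries with no covariate. This scale understates the change of low genes. The Benjamini-Hochberg adjustment ran over all tested genes, with a threshold of 0.05. The main test follows an earlier analysis of these data, and the members and the gene lists were chosen with earlier results of these data known. Named genes were the 10 members, Rbpms, Cdkn1a, Trp53 and Mdm4, and of each other list up to 4 genes past the threshold or the 1 with the smallest p, with cell type markers given only as sums. Exon lengths came from GENCODE M21 (GRCm38) by gene identifier, for 98.2% of tested genes. The code was tested on simulated data. Alternatives covered pseudocount, filter, scaling, voom, moderation, a replicate block, sex and each library left out.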

Additional observations from a re-analysis of the deposited data

How the results depend on the processing

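Zmat3 was the one p53 target called, and the call was marginal. Of the 10 targets, 0 passed with a pseudocount of 0.5, with a minimum value of 50, by voom on the values or on recovered reads, without trend and robust moderation, or with the replicate number as a block (limma in each case, with 4 of 10 at an unadjusted p under 0.05 in each), while 2 passed with no filter. Of all tested genes, the fits with 0 held 2455 of 14974, 2044 of 11783 and 2468 of 14974 at that level, in the order named. The remaining fits with 0 held 2480 of 15029, 2315 of 14974 and 2085 of 14974. Leaving out 1 library gave 0 to 3 called targets. Over all genes, 141 calls became 218 with no filter, 83 with a minimum of 50, 72 and 73 by voom on the values and on recovered reads, 24 without trend and robust moderation, 223 with sex as a covariate and 256 in male libraries, and 0 to 727 with 1 library left out. By voom on the values 28 were higher and 44 lower, against 76 and 65 in the test reported. Among other p53 targets and regulators, 1 call became 3 with no filter, 0 without trend and robust moderation, 2 with sex as a covariate and 2 in male libraries, and 0 to 6 with 1 library left out. The replicate block gave 23 calls over all genes and kept Cdkn1a. Same-numbered libraries deviated from their group means with correlations of -0.169, -0.111 and -0.13, so no pairing by number showed. The same-numbered libraries of replicates 1 and 3 differed in sex by Xist, so this check cannot exclude a pairing by litter.

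Eda2r, Zmat3, Phlda3, Bax and Sesn1 had a fold change above 0 under all 17 alternatives. The groups of Eda2r, Zmat3, Phlda3 and Bax did not overlap, so leaving out libraries or changing the pseudocount could not turn their signs. Signs turned for genes near 0: with 1 library left out, the log2 fold change ran from -0.12 to 0.44 for Trp53inp1, -0.15 to 0.23 for Btg2, -0.019 to 0.16 for Ccng1, -0.014 to 0.065 for Plk2, -0.0061 to 0.068 for Mdm2 and -0.016 to 0.089 for Mdm4. Mdm2 was at -0.0011 and -0.0032 by voom on the values and on recovered reads, and in male libraries Trp53inp1 was at -0.17 and Mdm4 at -0.019. The cause of these changes was not tested. With 3 libraries per group, the intervals of Trp53inp1, Btg2 and Sesn1 leave changes in either direction possible.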

Other observations

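Among 17 tested paralogues of the 10 targets, 1 rose and 0 fell (limma, adjusted p under 0.05), where 0.508% and 0.434% of all tested genes were called higher and lower, with a median log2 fold change of 0.04. The gene that rose was Phlda1, a pleckstrin homology-like protein of the same family as Phlda3, with 404, 355 and 465 in knockout libraries, against 194, 158 and 214 in wildtype libraries. The groups did not overlap, and its log2 fold change was 1.11 (adjusted p = 0.0202, 0.00101 to 0.143 with 1 library left out). Sesn3, a sestrin related to Sesn1 and singled out after its values were seen, had 417, 429 and 388 in knockout libraries, against 550, 544 and 457 in wildtype libraries. Its groups were separate with knockout lower, as for 10.9% of all tested genes, and its log2 fold change of -0.33 did not pass (limma, adjusted p = 0.12). Among the 17 paralogues, 3 were separate and higher and 1 was separate and lower, where all tested genes gave 11% and 10.9%.

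Of 10 immediate early genes, 0 passed in limma and 0 by voom applied to recovered reads. Before adjustment, 0 had a p under 0.05 in the higher and 1 in the lower direction, where all tested genes gave 8.54% and 7.86%. The 1 lower gene was Jun, an AP-1 subunit, with 621, 703 and 615 in knockout libraries, against 1026, 814 and 746 in wildtype libraries (log2 fold change -0.40, adjusted p = 0.142).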
